A study of Mus musculus with 10 samples.

Results

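The cell cycle and DNA replication genes examined here are 47 named mouse genes, each present as a row in both deposited tables of 23364 genes. They are a list of named genes, with no threshold on any value, drawn up with earlier results of these data known. Sorted by textbook role, 22 act in or just before S phase, when DNA is copied, and 25 act in mitosis, when chromosomes are parted. Crypts were freed from the distal colon of mice by shaking in EDTA, which loosens the epithelium, and their poly(A) RNA was sequenced in 10 libraries. In the AOM+DSS group, with 3 libraries, mice received azoxymethane, an alkylating carcinogen, and then dextran sulfate sodium, a colon irritant. The submitters describe it as cancer that follows inflammation. In the DSS group, with 4 libraries, mice received dextran sulfate sodium alone, and 3 control libraries came from untreated mice. The sources used here do not give strain, age, sex, doses, times, whether each library came from 1 animal, or the share of tumour in the AOM+DSS crypts. P-values therefore measure the spread between these libraries, which may be technical.

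As background, crypt cells divide near the crypt base and stop dividing as they move up and differentiate. Entry into S phase follows release of E2F transcription factors from the retinoblastoma protein by cyclin-dependent kinases. E2F factors then raise transcription of genes for origin licensing, the MCM helicase and nucleotide supply. Later in the cycle a complex of MuvB proteins with B-MYB and FOXM1 drives the mitotic genes, through a promoter element named CHR. A separate element, CCAAT, is common in the same promoters. Proliferation in colitis and in colon tumours is commonly followed with transcripts of both phases, of which Mki67 and Pcna are familiar examples.

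Promoter windows are shown for the 2 members of each class with the smallest adjusted p in the AOM+DSS comparison among those found in the RefSeq promoter table (GRCm38.p6), to show what the leading genes of each class carry at their starts. Each window runs from 250 bases before to 50 bases after a transcription start and is written 5′ to 3′ on the gene's strand. Capitals mark matches on either strand to an E2F site (TTTCCCGC, TTTCGCGC, TTTGCCGC or TTTGGCGC), to CHR (TTTGAA) or to CCAAT. No matches overlapped in these windows. E2f2 has 2 annotated starts in the table, both on the plus strand, and the single start of Rrm2 is on the plus strand as well. Top2a and Bub1 lie on the minus strand.
E2f2, first start, chr4:136172024-136172323: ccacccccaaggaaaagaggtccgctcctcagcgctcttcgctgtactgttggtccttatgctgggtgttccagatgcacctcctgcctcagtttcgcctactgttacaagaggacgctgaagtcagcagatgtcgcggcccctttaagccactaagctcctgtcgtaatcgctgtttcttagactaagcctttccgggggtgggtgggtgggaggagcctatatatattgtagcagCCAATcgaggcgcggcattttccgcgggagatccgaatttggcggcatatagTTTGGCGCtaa
E2f2, second start, chr4:136180532-136180831: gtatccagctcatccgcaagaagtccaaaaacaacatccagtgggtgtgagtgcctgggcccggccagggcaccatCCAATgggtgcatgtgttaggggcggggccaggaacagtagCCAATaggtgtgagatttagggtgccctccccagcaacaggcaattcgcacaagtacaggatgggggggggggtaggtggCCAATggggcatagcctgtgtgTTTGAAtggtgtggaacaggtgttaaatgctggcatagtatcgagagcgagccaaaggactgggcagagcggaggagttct
Rrm2, chr12:24708004-24708303: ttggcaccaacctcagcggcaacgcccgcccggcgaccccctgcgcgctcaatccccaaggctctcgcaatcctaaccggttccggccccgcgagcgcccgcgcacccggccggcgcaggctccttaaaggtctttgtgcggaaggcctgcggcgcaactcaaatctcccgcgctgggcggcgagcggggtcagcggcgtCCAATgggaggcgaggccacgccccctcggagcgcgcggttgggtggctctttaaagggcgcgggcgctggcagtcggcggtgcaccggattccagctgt
Top2a, chr11:99024140-99024439: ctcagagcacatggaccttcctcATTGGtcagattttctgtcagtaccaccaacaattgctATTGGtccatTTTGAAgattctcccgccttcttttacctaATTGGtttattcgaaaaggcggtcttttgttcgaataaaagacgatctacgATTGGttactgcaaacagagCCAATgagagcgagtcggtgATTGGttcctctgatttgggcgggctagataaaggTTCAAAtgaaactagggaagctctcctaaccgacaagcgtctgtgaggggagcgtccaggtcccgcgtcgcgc
Bub1, chr2:127831810-127832109: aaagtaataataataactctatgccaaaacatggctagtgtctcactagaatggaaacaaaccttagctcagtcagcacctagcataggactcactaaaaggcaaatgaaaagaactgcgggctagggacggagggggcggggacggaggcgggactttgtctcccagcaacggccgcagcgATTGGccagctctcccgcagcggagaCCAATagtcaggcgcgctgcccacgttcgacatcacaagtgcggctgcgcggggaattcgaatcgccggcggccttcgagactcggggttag
The first E2f2 window holds 1 E2F match close to the start and 1 CCAAT, the second 1 CHR and 3 CCAAT, and Rrm2 holds 1 CCAAT. The Top2a window holds 2 CHR and 6 CCAAT matches, and that of Bub1 holds 2 CCAAT.

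Over the 38 members with a promoter in the table, matches were counted by class. An E2F match stood in 7 of 18 S-phase genes and in 1 of 20 mitotic genes, against 2.60% of 27025 genes in the table. Mcm3, Mcm5, Mcm6, Mcm7, Cdc6, Cdt1 and E2f2 were the S-phase genes with one, and Cdk1 was the mitotic gene. CHR stood in 3 S-phase and 15 mitotic genes, against 20.2% of all genes, and CCAAT in 11 and 18, against 41.1%. A match is a run of letters and not a measured binding site. The promoters of Mcm4, Gins1, Gins2, Ccne2, Ccna2, Foxm1, Aurkb, Kif20a and Tpx2 were not analysed here.

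The deposited tables hold group means of normalized read counts, from which the whole reads of each library were worked back. A letter names each library of a group by depth, starting from a as deepest, and no letter stands for a replicate number of the labels. Recovered depth was 13745369 to 20139515 reads in AOM+DSS, 4272076 to 8480194 in DSS and 13478107 to 14985085 in control. These totals count recovered genes only, which held 81.2%, 33.9% and 76.7% of each mean total, so they do not compare depth between groups. Size factors ran from 0.905 to 1.345 in AOM+DSS, 0.645 to 1.265 in DSS and 0.944 to 1.036 in control. All members were recovered in AOM+DSS and control, and in DSS all but Mki67 and Top2a. The DSS mean of Mki67 lay above 2900, the highest mean searched for 4 libraries, and that of Top2a gave no single match. In AOM+DSS library c the 7 smooth muscle markers summed to 13772 normalized reads, against 1402 and 1348 in libraries a and b. In DSS library a 7 recovered B and plasma cell markers summed to 9414, against 1882 to 3196 in the other DSS libraries, and in control library b they summed to 1025, against 193 and 129. Per the authors' deposited table the means of 9 pan-epithelial markers summed to 229104 normalized reads in AOM+DSS, 258345 in DSS and 231971 in control. Fewer dividing cells and less RNA per dividing cell cannot be told apart in such bulk samples.

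In AOM+DSS crypts, the transcription factor gene E2f2 and the ribonucleotide reductase gene Rrm2 rose relative to control, and no other member of the 47 passed the test. In DSS crypts E2f2 alone rose by the authors' test. All 25 mitotic members had a higher mean of normalized reads than control in both treated groups, by small folds that did not pass singly in the authors' test. Both comparisons use the same control libraries, and these members varied together by library in AOM+DSS and control. The S-phase members were divided, and the 6 subunits of the MCM2-7 helicase had lower means in DSS than in control. The authors' DESeq test, with an adjusted p under 0.05 over all genes, called 2 of 47 members higher in AOM+DSS than in control, where 5.54% of all 18334 genes tested were called higher. It called 0 members lower, where 3.35% of all genes were. Before adjustment, at p under 0.05, 12 members passed as higher and 0 as lower, with 11.1% and 7.75% of all genes. For DSS it called 1 of 47 higher (2.61% of 18099 genes) and 0 lower (1.78%), and before adjustment 4 members passed as higher and 3 as lower (7.76% and 5.46%).

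The second test was limma on log2(normalized recovered reads + 1), adjusted over all genes recovered. It called E2f2 and Rrm2 higher in AOM+DSS than in control (10.7% of 18067 genes were called higher) and 0 members lower (6.35%), and 6 higher and 0 lower before adjustment, at p under 0.05 (19.8% and 14.7% of all genes). In DSS against control it called E2f2 and Ccna2 higher and Mcm6 lower among 45 members (2.95% and 2.65% of 15753 genes), with 14 higher and 6 lower before adjustment, at p under 0.05 (11.1% and 10.4% of all genes). Markers of other cells were summed by library, without a test. The 7 myeloid markers in the tables, of 8 listed, summed to 4588 to 9666 normalized reads in AOM+DSS, 2461 to 4779 in DSS and 1333 to 2477 in control, with none at 0. The 8 fibroblast markers summed to 3111 to 4348 in AOM+DSS, 448 to 1133 in DSS and 498 to 2109 in control, with Pdgfra at 0 in some library. Their part in the member values was not tested. The heatmap of members by library shows each value relative to the control mean.

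**Figure D1:**
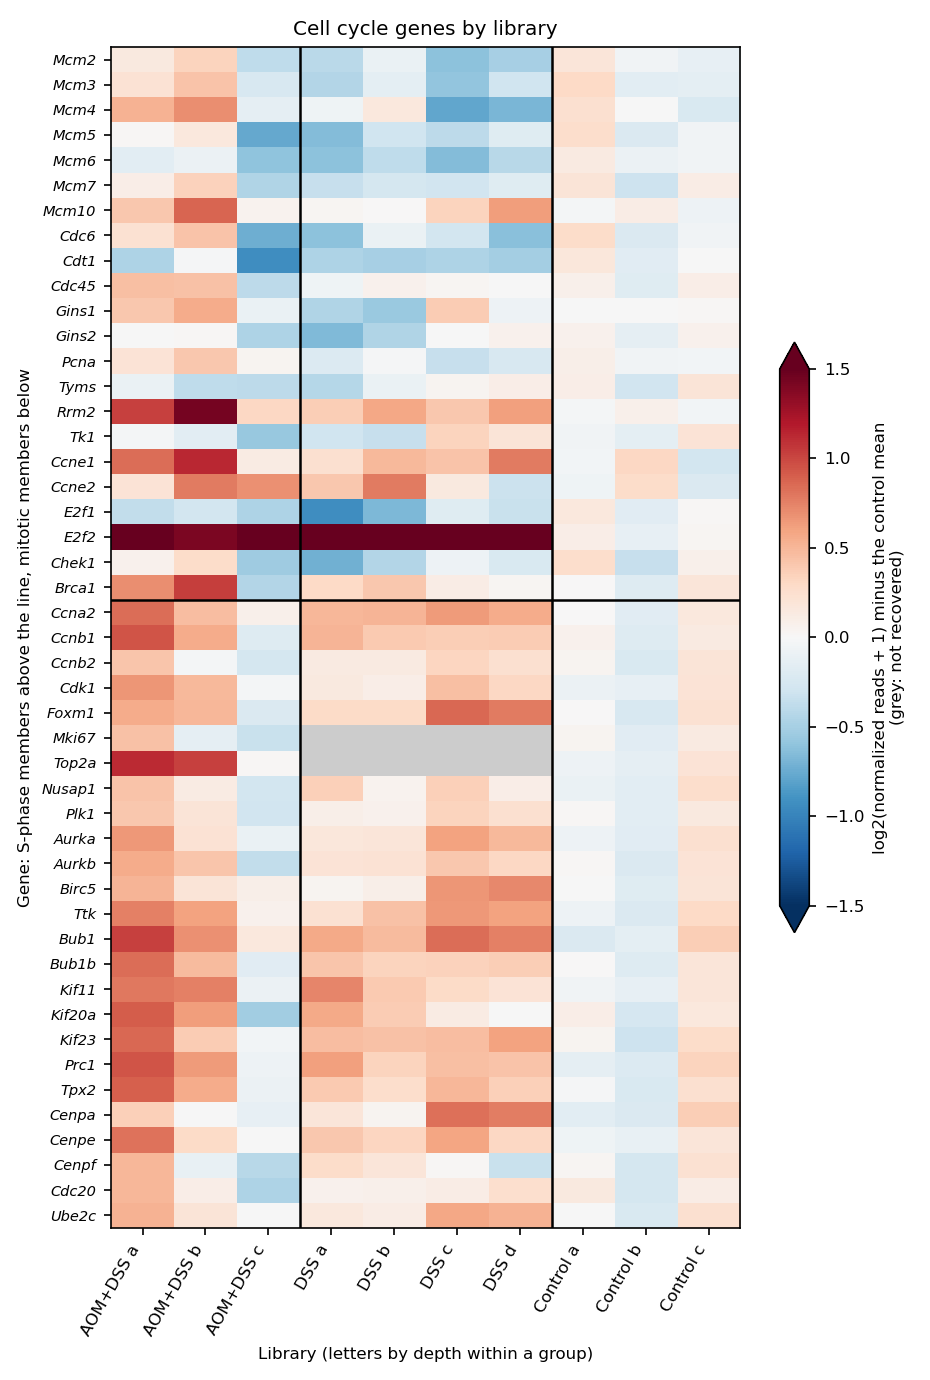
Heatmap of log2(normalized reads + 1) minus the control mean for 47 members (rows, S-phase genes above the line and mitotic genes below) in the 3 AOM+DSS, 4 DSS and 3 control libraries (columns). E2f2 is deep red in all 7 treated libraries, AOM+DSS library c is paler or bluer than a and b in nearly every row, and Mki67 and Top2a are grey in DSS, where they were not recovered.

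Among the 4 regulators of S-phase entry, E2f2, an activating E2F transcription factor, showed the largest fold of all 47 members. E2f2 stood at 1144, 1045 and 1127 normalized reads in AOM+DSS, 1212, 1134, 1497 and 1469 in DSS and 422, 360.5 and 400.4 in control. The lowest treated library lay above the highest control library by a wide margin, and the AOM+DSS and DSS values overlapped. The mean was 1105 ± 53.0 in AOM+DSS (SD, n = 3), 1328 ± 182 in DSS (n = 4) and 394 ± 31.2 in control (n = 3). In the authors' deposited table the fold was 2.80 for AOM+DSS (adjusted p = 5.73e-08) and 3.37 for DSS (adjusted p = 6.93e-11). Limma gave log2 folds of 1.49 (SE 0.110, adjusted p = 9.51e-04) and 1.74 (SE 0.139, adjusted p = 5.14e-04). The call held in all 13 alternatives for AOM+DSS and all 16 for DSS. Both comparisons share the 3 control libraries. E2f2 shares no exonic bases with another gene among those in the deposited tables.

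The related activator E2f1 did not follow E2f2. E2f1 had 189.6, 203 and 178 normalized reads in AOM+DSS, 129, 153, 217 and 195 in DSS and 274, 218 and 249 in control. All treated libraries lay below the lowest control library, and E2f1 was the one member with AOM+DSS values entirely below control (17.6% of all genes were). The log2 fold in the authors' deposited table was -0.38 in AOM+DSS (adjusted p = 0.661) and -0.51 in DSS (adjusted p = 0.373), and neither passed. Of E2f3 to E2f8, 0 of 6 passed in either comparison, with log2 folds of -0.25 to 0.41 in AOM+DSS and -0.24 to 0.15 in DSS in the authors' deposited table. Cyclin E, the partner of CDK2 at S-phase entry, is encoded by Ccne1 and Ccne2. Ccne1 had 258, 318 and 157 normalized reads in AOM+DSS, 172, 204, 195 and 249.7 in DSS and 141, 179 and 119.7 in control. AOM+DSS libraries a and b lay above every control library and library c did not, and the log2 folds of 0.74 in AOM+DSS and 0.49 in DSS in the authors' deposited table did not pass (adjusted p = 0.123 and 0.643). Ccne2, which overlaps an exon of Ints8 on the other strand, had the lowest level per kilobase of transcript of all members, with 16.7 normalized reads per kb in AOM+DSS, 13.7 in DSS and 11.2 in control.

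Of the 3 genes of nucleotide supply, Rrm2 stood apart from Tyms and Tk1. Rrm2 encodes the small subunit of ribonucleotide reductase, whose supply rises in S phase. It had 719, 959 and 441 normalized reads in AOM+DSS, 457, 528, 469 and 541 in DSS and 347, 373 and 343 in control. All treated libraries lay above the highest control library, while AOM+DSS libraries a and b lay above c. In the authors' deposited table Rrm2 rose 1.99-fold in AOM+DSS (adjusted p = 0.0238), while its DSS fold of 1.41 did not pass (adjusted p = 0.579). Limma gave log2 0.92 for AOM+DSS (SE 0.257, adjusted p = 0.046) and 0.49 for DSS (SE 0.126, adjusted p = 0.0597). The DSS value passed with a mean filter of 10 (adjusted p = 0.0492), a pseudocount of 10 (0.0474) or the correction for GC content and length (0.0271). The AOM+DSS call by limma held in 7 of 13 alternatives, with adjusted p from 0.00462 to 0.152, and leaving out AOM+DSS library b gave a log2 fold of 0.67, the smallest of these. It was lost without any 1 of the control libraries, without AOM+DSS library a or b, and with 10 in place of 1 as the pseudocount. Tyms, thymidylate synthase, had 836, 688 and 684 normalized reads in AOM+DSS, 668, 835, 928 and 960.1 in DSS and 963, 735 and 1025 in control. Tk1, thymidine kinase of the salvage route, had 802, 730.4 and 551 normalized reads in AOM+DSS, 666, 643, 1029 and 937 in DSS and 787, 736 and 942 in control. In both the 3 groups overlapped, with log2 folds in the authors' deposited table of -0.30 and -0.24 for AOM+DSS and -0.10 and -0.0049 for DSS. Tk1 shares 83 exonic bases with Afmid on the other strand, and the library kit does not mark strand.

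The 6 subunits of the MCM2-7 helicase, the ring that unwinds DNA at the fork, had lower DSS means than control in each case, with log2 folds of -0.51 to -0.29 and a median of -0.38 in the authors' deposited table. The median of all genes with a mean of at least 100 was 0.038. In AOM+DSS the 6 folds ran from -0.27 to 0.39, with a median of 0.039, against -0.0065 over all such genes. Mcm6 was the one subunit called with all libraries. It had 1658, 1749 and 1224 normalized reads in AOM+DSS, 1207, 1428, 1181 and 1396 in DSS and 2045, 1743 and 1794 in control. Every DSS library lay below every control library, and AOM+DSS library b lay inside the control range. Limma called Mcm6 lower in DSS by log2 -0.52 (SE 0.120, adjusted p = 0.0419), whereas DESeq did not in the authors' deposited table (adjusted p = 0.178). The limma call held in 6 of 16 alternatives and was lost without any 1 of the DSS or control libraries, with log2 values of -0.56 to -0.45.

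Mcm4 differed among the libraries of both treated groups. It had 994, 1126 and 632 normalized reads in AOM+DSS, 663, 777, 405 and 433 in DSS and 818, 691 and 592 in control. DSS libraries c and d lay below a and b and below all other libraries, and AOM+DSS libraries a and b lay highest. The authors' deposited table gave log2 folds of 0.39 in AOM+DSS and -0.30 in DSS (adjusted p = 0.572 and 0.987). Mcm2 had 1105, 1259.7 and 763 normalized reads in AOM+DSS, 751, 929, 653 and 704 in DSS and 1132, 959.9 and 913 in control. Mcm3 had 1045, 1204 and 759 normalized reads in AOM+DSS, 660.0, 807, 593 and 729 in DSS and 1105, 807 and 810.3 in control. In both genes DSS libraries a, c and d lay below all control libraries, and DSS library b overlapped them. Mcm5 had 1445, 1595 and 839.6 normalized reads in AOM+DSS, 907, 1160.1, 1086 and 1263 in DSS and 1717, 1226 and 1381 in control. Mcm7, which overlaps exons of Ap4m1 and Cops6 on the other strand, had 1692, 2014 and 1160.0 normalized reads in AOM+DSS, 1245, 1315, 1299 and 1391 in DSS and 1812, 1278 and 1708 in control. Limma's log2 folds for DSS were -0.41 for Mcm2, -0.37 for Mcm3, -0.34 for Mcm4, -0.38 for Mcm5 and -0.27 for Mcm7, with adjusted p from 0.156 to 0.483.

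Loading factors and helicase partners did not pass in either planned test with all libraries. Cdt1, which with Cdc6 loads the MCM ring on origins, had 455, 618 and 328 normalized reads in AOM+DSS, 455, 442, 453 and 439 in DSS and 706, 556 and 624 in control. All DSS libraries lay below all controls, and AOM+DSS library b lay inside the control range. Per the authors' deposited table its log2 fold was -0.43 in AOM+DSS and -0.49 in DSS (adjusted p = 0.447 and 0.334). For DSS limma gave adjusted p = 0.0581, which became 0.0481 with a mean filter of 10 and 0.0467 with a pseudocount of 10. Limma's adjusted p was 0.0455 without control library b, and 0.0497 without control library b and DSS library a. Cdc6 had 255, 294 and 130.4 normalized reads in AOM+DSS, 141, 203, 179.8 and 141 in DSS and 264, 187 and 209.7 in control. Its 3 ranges overlapped. Mcm10, which joins the helicase at origin firing, had 513, 709 and 402 normalized reads in AOM+DSS, 396, 389, 487 and 597 in DSS and 379, 417 and 366 in control. Its AOM+DSS libraries a and b and DSS library d lay above the control range by the widest margins. Without AOM+DSS library c, limma called Mcm10 higher in AOM+DSS (log2 0.64, adjusted p = 0.0404). Cdc45, Gins1 and Gins2 complete the active helicase. Their log2 folds in the authors' deposited table were 0.21, 0.31 and -0.13 in AOM+DSS and 5.66e-04, -0.13 and -0.24 in DSS. Gins2 shares 2758 exonic bases with Gse1 on the other strand.

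Pcna, the sliding clamp of DNA polymerases, had the highest level per kilobase of all members in each group, at 1655 normalized reads per kb in AOM+DSS, 1239 in DSS and 1419.7 in control. Its libraries held 2486, 2844 and 2207 normalized reads in AOM+DSS, 1867, 2131, 1701 and 1827 in DSS and 2287, 2078 and 2100.4 in control. It was the one member whose AOM+DSS and DSS libraries did not overlap (8.73% of 16034 genes lay higher in this way), and none lay lower, where 3.41% did, though the limma difference of log2 0.41 between them did not pass (adjusted p = 0.178). Chek1, a kinase that halts the cycle when forks stall, had 174, 202 and 115 normalized reads in AOM+DSS, 101, 123, 159 and 143 in DSS and 201, 131 and 176 in control. The repair gene Brca1 had 355, 448 and 161 normalized reads in AOM+DSS, 268, 290.0, 235 and 223 in DSS and 219, 192 and 248 in control. The Chek1 ranges overlapped throughout. Brca1 in AOM+DSS libraries a and b lay above control and in library c below it, with log2 folds of 0.55 in AOM+DSS and 0.21 in DSS in the authors' deposited table (adjusted p = 0.4 and 0.976).

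**Figure D2:**
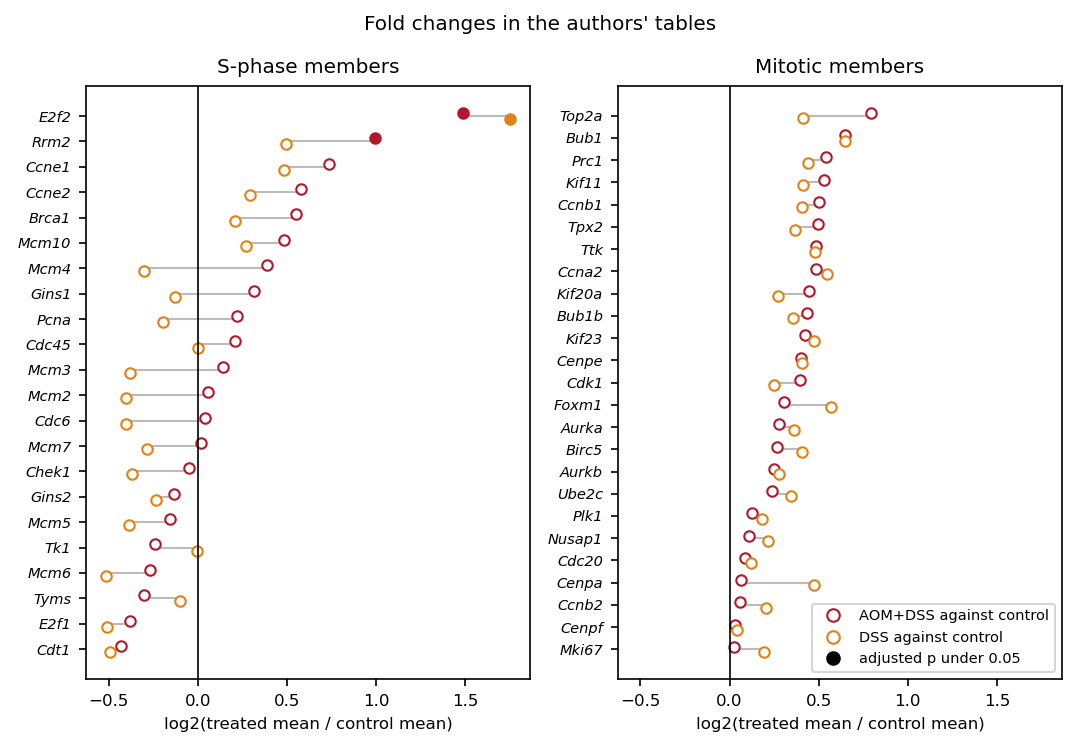
Log2 of treated mean over control mean in the authors' deposited tables (x axis) for each member (rows), in AOM+DSS (red) and DSS (orange), with filled points for an adjusted p under 0.05. Filled points are E2f2 in both comparisons and Rrm2 in AOM+DSS; all 25 mitotic genes lie right of 0 in both, and both comparisons use the same control means.

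Among the mitotic members, the cyclins and their kinase come first in the cycle. Ccna2 encodes cyclin A2, which acts from S phase into mitosis. It was the one mitotic gene called by limma with all libraries before any alternative setting. After a correction for GC content and length, limma also called the mitotic genes Ube2c (log2 0.44, adjusted p = 0.0389) and Ccnb1 (log2 0.44, adjusted p = 0.0458) higher in DSS. Ccna2 had 1498, 1159 and 883 normalized reads in AOM+DSS, 1185, 1199, 1306 and 1239 in DSS and 843, 749.6 and 939.5 in control. Every DSS library lay above every control library, whereas the AOM+DSS libraries ranged from within control to above DSS. Limma gave log2 0.55 in DSS (SE 0.116, adjusted p = 0.0276), while DESeq did not call it in the authors' deposited table (log2 0.55, adjusted p = 0.184). The limma call held in 8 of 16 alternatives, with log2 values of 0.47 to 0.63, and was lost without any 1 of the control libraries or of DSS libraries b, c and d. Ccna2 shares 510 exonic bases with Exosc9 on the other strand, whose means in the authors' deposited table were 496.5 in AOM+DSS, 393 in DSS and 370.2 in control. For AOM+DSS the Ccna2 fold of log2 0.48 in the authors' deposited table did not pass (adjusted p = 0.151).

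Cyclin B1 and B2 with the kinase Cdk1 start mitosis. Ccnb1 had 1036, 797 and 471 normalized reads in AOM+DSS, 768, 709, 695 and 703 in DSS and 564, 473 and 591 in control. Cdk1 had 1159, 1026 and 716 normalized reads in AOM+DSS, 811, 785, 997 and 906 in DSS and 690.3, 669.6 and 846 in control. Foxm1, a transcription factor of mitotic genes, had 692, 664 and 405 normalized reads in AOM+DSS, 576, 574, 855 and 811 in DSS and 471, 400.0 and 554 in control. In Ccnb1 and Foxm1 the DSS libraries lay above control without overlap, and in all 3 genes AOM+DSS libraries a and b lay above control while c did not. Log2 folds in the authors' deposited table for Ccnb1, Cdk1 and Foxm1 were 0.50, 0.40 and 0.31 in AOM+DSS and 0.41, 0.25 and 0.57 in DSS, with adjusted p of 0.229 or more. Ccnb2 had smaller folds, log2 0.058 and 0.20 in the authors' deposited tables for AOM+DSS and DSS.

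Of the chromosome proteins, Top2a and Mki67 differed from each other. Top2a encodes the topoisomerase that untangles sister chromatids. It had 4607, 4345 and 2159.8 normalized reads in AOM+DSS and 2017, 1945 and 2455 in control. Library c lay inside the control range, and libraries a and b lay above it. In the authors' deposited table the Top2a mean was 3704 in AOM+DSS and 2849.8 in DSS, against 2139 in control, with log2 folds of 0.79 (adjusted p = 0.0587) and 0.41 (adjusted p = 0.599). Mki67, the gene of the Ki-67 antigen used to stain cycling cells, had 7673, 5137 and 4463 in AOM+DSS and 5817, 5002 and 6187 in control, where library b of AOM+DSS lay inside the control range and c below it. Its means in the authors' deposited table were 5757 in AOM+DSS, 6476 in DSS and 5669 in control, log2 0.022 and 0.19, the smallest AOM+DSS fold of the mitotic members. Nusap1, a spindle-associated protein, stood at log2 0.11 in AOM+DSS and 0.21 in DSS in the authors' deposited table.

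The kinases of mitosis and the spindle checkpoint had positive folds that did not pass with all libraries. Bub1, a checkpoint kinase at kinetochores, had 503, 398 and 276 normalized reads in AOM+DSS, 368, 344, 442 and 417 in DSS and 211, 223 and 318 in control. Every DSS library lay above control, and AOM+DSS library c lay inside the control range. Per the authors' deposited table the log2 fold of Bub1 was 0.65 in AOM+DSS (adjusted p = 0.0951) and 0.65 in DSS (adjusted p = 0.224), and limma gave adjusted p = 0.127 and 0.0731. Bub1b, its partner in the checkpoint, had 1037, 803 and 513 normalized reads in AOM+DSS, 773, 727, 732 and 748 in DSS and 582, 506 and 656 in control. The pattern over libraries was that of Bub1. Plk1, Aurka, Aurkb, Birc5 and Ttk, which assemble the spindle or the chromosomal passenger complex or act in the checkpoint, had log2 folds of 0.13 to 0.49 in AOM+DSS and 0.18 to 0.48 in DSS in the authors' deposited table. Birc5 (survivin) had 982, 786 and 730.2 normalized reads in AOM+DSS, 709, 731, 1092 and 1135 in DSS and 687, 606 and 785 in control. Its DSS libraries c and d lay far above a and b, which overlapped control.

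The spindle and division genes had positive folds in both treated groups, and none passed with all libraries. Kif11, a motor that pushes spindle poles apart, had 1069, 1041 and 583 normalized reads in AOM+DSS, 1027, 812, 752 and 713 in DSS and 596, 566 and 701 in control. Prc1, which bundles the central spindle, had 1156, 942 and 573 normalized reads in AOM+DSS, 925, 762, 826 and 808 in DSS and 549, 523 and 761 in control. Tpx2, an activator of Aurora A, had 1291, 1018 and 652 normalized reads in AOM+DSS, 909, 829.7, 976 and 890.3 in DSS and 686, 594 and 818 in control. In all 3 the DSS libraries lay above control without overlap, and AOM+DSS libraries a and b lay above control while c did not. Kif23, a motor of cell division, had 1266, 907 and 679 normalized reads in AOM+DSS, 962, 945, 962 and 1058 in DSS and 718, 563 and 843 in control. Kif20a, another motor of division that overlaps Cdc23 on the other strand, had 683, 562 and 253 normalized reads in AOM+DSS, 537, 475, 395 and 363 in DSS and 389, 304 and 406 in control. The Kif20a value of AOM+DSS library c was below all others. Over these 5 genes log2 folds in the authors' deposited table ran from 0.43 to 0.54 in AOM+DSS (adjusted p of 0.17 or more) and from 0.27 to 0.47 in DSS (adjusted p of 0.341 or more).

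**Figure D3:**
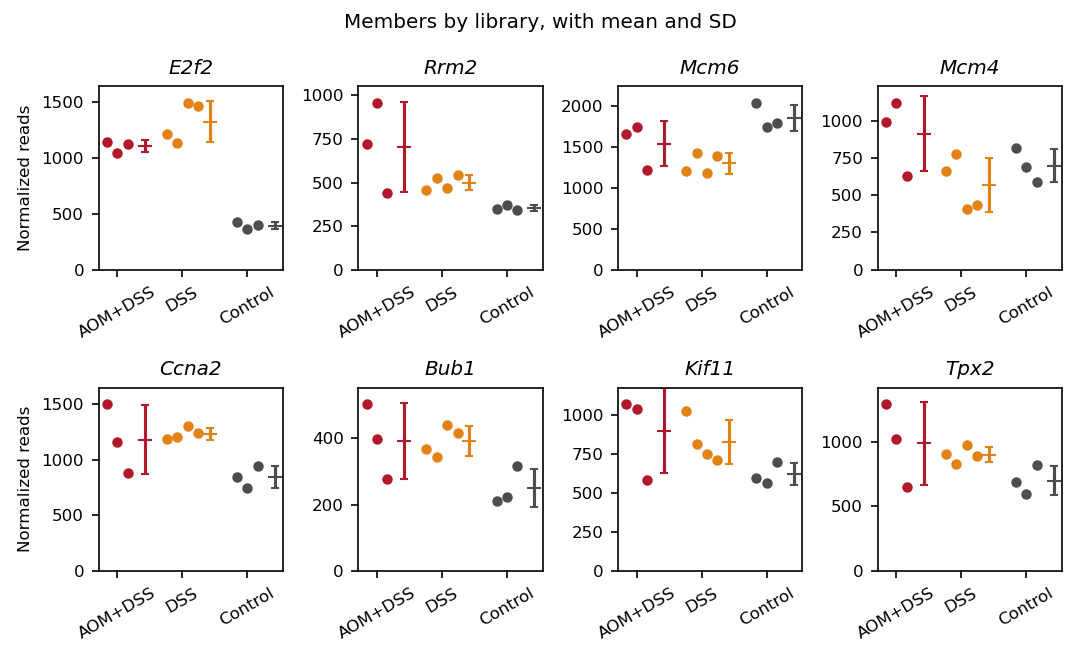
Normalized reads per library (points, in order of letters) for 8 members, with mean and SD beside them, in AOM+DSS, DSS and control. E2f2 separates all treated libraries from control, Mcm6 lies lower in DSS than in control, and in the lower row AOM+DSS library c lies near control while DSS lies above it.

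Centromere proteins and partners of the anaphase-promoting complex closed the list. Cenpe, a kinetochore motor, had 1238, 865 and 702 normalized reads in AOM+DSS, 934, 885, 1065 and 879 in DSS and 674, 654 and 799.7 in control. Cenpa, the histone variant of centromeres, had 611, 475 and 439.7 normalized reads in AOM+DSS, 542, 494, 848 and 813 in DSS and 429.6, 409.8 and 619.6 in control. Cenpe in DSS lay above control without overlap. Cenpa in DSS libraries c and d lay above all other libraries, and in a and b inside the control range. Cenpf, Cdc20 and Ube2c had log2 folds of 0.03, 0.084 and 0.24 in AOM+DSS and 0.04, 0.12 and 0.35 in DSS in the authors' deposited table, and none passed there.

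Set side by side, the classes had unlike medians. In the authors' deposited table the 25 mitotic genes had a median log2 fold of 0.40 in AOM+DSS and 0.37 in DSS. In each comparison 25 lay above 0. Both comparisons share the control libraries, of which b was lowest for 24 of 25 mitotic genes. AOM+DSS library a was highest for 25 of 25, so the counts above 0 are not 25 separate results. The 22 S-phase genes had a median of 0.10 in AOM+DSS, with 14 above 0, and of -0.22 in DSS, with 7 above 0. On limma's scale of mean logs, the mitotic genes Mki67 (log2 -0.011) and Cenpf (log2 -0.0069) lay just below 0 in AOM+DSS. The AOM+DSS medians turned on single libraries. Computed as differences of mean logs, the S-phase median of 0.083 with all libraries became -0.0018 without AOM+DSS library a and -0.065 without b, 0.31 without c, 0.16 without control library a, and 0.031 and 0.058 without control libraries b and c. On the same scale the mitotic median of 0.34 with all libraries became 0.14 without AOM+DSS library a, 0.55 without c and 0.21 without control library b. Over all genes with a mean of at least 100 the medians were -0.0065 and 0.038. In DSS, 11 of 23 mitotic genes had all libraries above all controls, as had 2 of 22 S-phase genes, where 9.36% of all genes did (12.5% of those with a mean of at least 100). The 11 were Ccna2, Ccnb1, Foxm1, Aurkb, Bub1, Bub1b, Kif11, Kif23, Prc1, Tpx2 and Cenpe. Of these, limma called Ccna2 before any alternative setting. The S-phase genes Mcm6, Cdt1 and E2f1 had all DSS libraries below all controls, and no mitotic gene did (10.7% of all genes).

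The mean log2 level of the mitotic members minus that of the S-phase members, over the 45 members recovered everywhere, was 0.80, 0.30 and 0.47 in AOM+DSS, 0.92, 0.66, 0.88 and 0.79 in DSS and 0.26, 0.28 and 0.63 in control. All 4 DSS values lay above all 3 control values, and the AOM+DSS values overlapped both. The offset itself also holds gene length, so its size in 1 library has no meaning of its own. Mean mitotic level was 9.46 ± 0.416 in AOM+DSS (SD, n = 3), 9.52 ± 0.0913 in DSS (n = 4) and 9.16 ± 0.213 in control (n = 3), on the scale of log2(normalized reads + 1). Mean S-phase level was 8.93 ± 0.346 in AOM+DSS, 8.71 ± 0.0911 in DSS and 8.77 ± 0.103 in control on the same scale. Given as a description of chosen genes, these means carry no test.

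**Figure D4:**
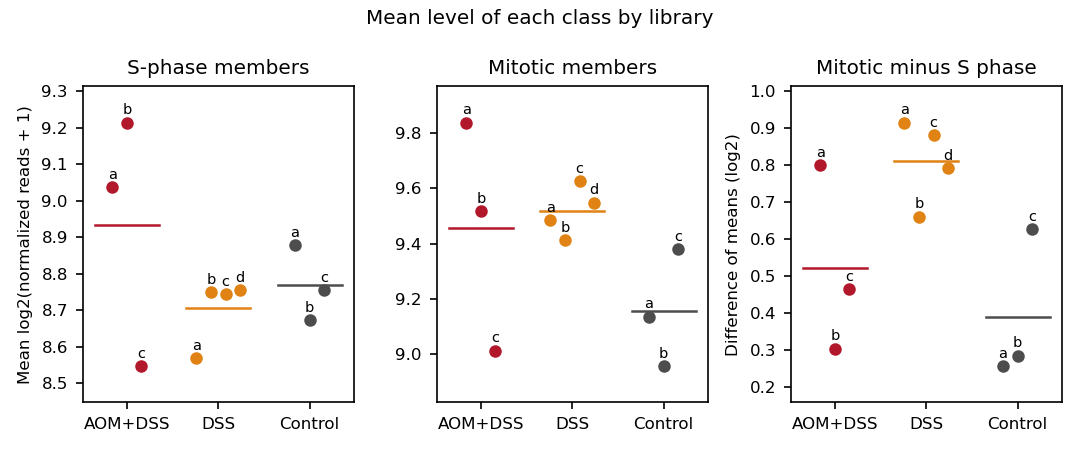
Mean log2(normalized reads + 1) of 22 S-phase members (left) and 23 mitotic members (middle) and their difference (right), 1 point per library with its letter and a line at the group mean, in AOM+DSS, DSS and control. DSS differences (0.66 to 0.92) lie above control (0.26 to 0.63), and AOM+DSS libraries spread widest in every panel.

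Libraries of 1 group differed along whole classes. In AOM+DSS, library a held the highest value for 25 of 25 mitotic genes, library b the highest for 18 of 22 S-phase genes, and library c the lowest for 45 of 47 members. In control, library c was highest and library b lowest for 24 of 25 mitotic genes, and library a was highest for 13 of 22 S-phase genes. The median coefficient of variation over members was 27.1% in AOM+DSS, 13.2% in DSS (45 members) and 14.3% in control. Over all genes with a mean of at least 100 it was 11.8%, 17.4% and 10.3% in these groups. In AOM+DSS it was lowest for E2f2, at 4.79%, and highest for Brca1, at 45.5%. In DSS, 13 of 23 mitotic genes had libraries c and d both above a and b and 4 had both below, as had 8 and 5 of 22 S-phase genes, against 25.6% and 35.3% of all genes.

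AOM+DSS library c decided how many members passed. Without it, limma called 16 of 47 higher than control, 6 S-phase and 10 mitotic, and 0 lower, where 13.6% of all 17908 genes were called higher and 9.89% lower. The 6 were Mcm4, Mcm10, Rrm2, Ccne1, E2f2 and Brca1, and the 10 were Ccna2, Ccnb1, Cdk1, Top2a, Bub1, Bub1b, Kif11, Kif20a, Prc1 and Tpx2. Top2a then stood at log2 1.07 (limma adjusted p = 0.00501), Rrm2 at 1.23 (adjusted p = 0.00592) and Kif11 at 0.77 (adjusted p = 0.0111). With all 3 AOM+DSS libraries, E2f2 and Rrm2 alone of 47 members lay above all controls, and 0 of 25 mitotic genes did, where 20.7% of all genes did. In libraries a and b, 26 members lay above all controls, 9 S-phase and 17 mitotic, where 29.5% of all genes did. E2f1 lay below all controls there (25.4% of all genes). Setting library c apart rests on the members' own values, lowest there for 45 of 47. The counts without library c are therefore a description and no separate test. Library c also differed in its makeup of markers: all 7 smooth muscle markers were recovered, and their sum there was 13772 normalized reads, against 1402 and 1348 in a and b and 853 to 2457 in control, with Cnn1 at 0 in some library. Its 7 recovered stem cell markers summed to 6311, against 10120.5 and 13047 in a and b, 4302 to 5089 in DSS and 5899 to 6608 in control. The DSS sums of these 7 all lay below control. They leave out Prom1, which the authors' test called higher in both treated groups. With Prom1, the means of the 8 listed stem cell markers summed to 22526 normalized reads in AOM+DSS, 13966 in DSS and 10058 in control. The 7 recovered T and NK cell markers summed to 460 to 753 in AOM+DSS, 3102 in DSS library a, 358 to 543 in the other DSS libraries and 89.0 to 518 in control, with Cd4 and Gzmb at 0 in some library. Their part in the member values was not tested.

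Between AOM+DSS and DSS, which both received dextran sulfate sodium, limma called 0 of 45 members higher and 0 lower, where 2.23% and 0.0811% of 16034 genes were called. Before adjustment, at p under 0.05, it called Mcm3, Mcm4 and Pcna higher and 0 lower (10.3% and 3.19% of all genes). The DESeq tables hold no such comparison. From the group means, S-phase genes had a median log2 ratio of 0.27 with 19 of 22 above 0, and mitotic genes one of -0.030 with 9 of 25 above 0, against -0.037 over all genes with a mean of at least 100. As differences of mean logs, the S-phase median was 0.23 with all libraries, 0.10 without AOM+DSS library b and 0.48 without c. The mitotic median on that scale was -0.078 with all libraries, -0.25 without AOM+DSS library a, and above 0, at 0.16, without c. It was -0.022 without DSS library c and -0.048 without DSS library d. All 6 MCM2-7 genes had a higher mean in AOM+DSS, by log2 0.23 to 0.69. The limma differences were 0.51 for Mcm3 (SE 0.182, adjusted p = 0.257) and 0.70 for Mcm4 (SE 0.279, adjusted p = 0.312). For E2f2 it was -0.26 (SE 0.135, adjusted p = 0.469).

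Other genes of the same processes, from lists of 41 replication, 21 G1 control and 59 mitosis genes, gave 1 or 0 calls per list and comparison in the authors' deposited table, where 5.54% of all genes were called higher and 3.35% lower in AOM+DSS and 2.61% and 1.78% in DSS. Of the 41 replication genes 0 were called in AOM+DSS, with a median log2 fold of -0.014, and 1 was lower in DSS, with a median of -0.076. That gene was Timeless, a fork protection factor, with normalized reads of 218, 217, 249 and 217 in DSS and 515, 332 and 409.9 in control. By the authors' deposited table it fell by 0.89 in log2 (adjusted p = 0.0230). Rrm1, the large subunit of ribonucleotide reductase, stood at log2 0.35 in AOM+DSS (adjusted p = 0.372), and Uhrf1, which maintains DNA methylation at forks, at -0.23 (adjusted p = 0.800), both in the authors' deposited table. Ccnd1, cyclin D1, was the one G1 control gene called, with 3371, 4189 and 2834 normalized reads in AOM+DSS and 2238, 2085 and 1863 in control. Its log2 fold in the authors' deposited table was 0.75 (adjusted p = 0.00773), and in DSS it was 0.40 (adjusted p = 0.384). DESeq called 0 of 21 G1 genes in DSS.

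Among the 59 other mitosis genes, 46 had a positive fold in AOM+DSS and 53 in DSS in the authors' deposited table, with medians of log2 0.31 and 0.28. Cep55, needed for the last step of cell separation, was the one called in AOM+DSS. It had 550.3, 566 and 288 normalized reads in AOM+DSS and 224, 217 and 275 in control, so library c lay just above the control range. The log2 fold was 0.97 in the authors' deposited table (adjusted p = 0.00639), and limma gave adjusted p = 0.0537. Wee1, the kinase that restrains Cdk1, was the one called in DSS, with 297, 266, 242 and 219 normalized reads in DSS and 467, 521 and 439.6 in control, all DSS libraries below all controls. By the authors' deposited table it fell by 0.89 in log2 (adjusted p = 0.0301), and limma gave adjusted p = 0.0136.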

How the data were processed

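Poly(A) RNA of distal colon crypts was made into libraries, per the labels' protocols, with the TruSeq RNA v2 kit. This kit leaves strand unmarked. TopHat2 2.0 mapped reads to mm9 and DESeq compared the groups, per the submitters' processing notes. The sources used here do not name the counter, annotation, strand setting or DESeq version. Per the file headers, the deposited signal columns are group means of counts normalized for library size, the fold ratio is treated mean over control mean, and the log2 column is the log of that ratio. Deposited p-values come from the authors' DESeq run, with a Benjamini-Hochberg adjustment that recomputes from the deposited p-values over each table. A count of 4 AOM+DSS replicates stands in 1 header, but there are 3 in the labels, and the printed means step as 3 libraries do.

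Means are printed to 15 significant digits, and each is a sum of whole reads over a size factor and the number of libraries. Reads were taken as recovered where exactly 1 combination of whole reads matched, searching means up to 10000 for 3 libraries and 2900 for 4. This gave 99.2% of genes in AOM+DSS, 90.0% in DSS and 99.0% in control, holding 81.2%, 33.9% and 76.7% of each mean total, and the step was checked on simulated data. Normalized reads are these reads over the size factor. No pair of libraries in a group agreed within sampling noise (chi-square per degree of freedom of 4.22 to 63.5). The lowest value was that of DSS libraries c and d, the shallowest of their group, and the other DSS pairs ran from 22.2 to 40.7. The tests counted c and d as separate libraries.

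The planned tests were the authors' adjusted p under 0.05 and limma 3.58.1 (R 4.3.3, trend) on log2(normalized reads + 1) over all recovered genes of a pair of groups, tested on simulated data; limma folds are differences of mean logs. Members are called by either test as named. Transcript length, GC content and exon overlaps came from GENCODE M21, and promoters from RefSeq; neither is mm9, so no coordinate was combined. Per-library values are given for members called in any comparison and for further members to show their class; from each pathway list up to 3 called genes with the smallest adjusted p are named, or else 2 with the highest mean. The 47 members, the classes and the lists were chosen with earlier results of these data known. Alternatives were the pseudocount, a mean filter, TMM scaling, a correction for GC content and length, 1 fit over all groups, each library left out, doubted libraries left out together, and medians of differences of mean logs in place of ratios of means.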

Additional observations from a re-analysis of the deposited data

Results flagged for a closer look

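Among 45 members tested for a library that stands apart in DSS, 1 was picked out. Kif23, a motor of cell division, had 962, 945, 962 and 1058 normalized reads in the DSS libraries in order of letters, and 718, 563 and 843 in those of control. The gap of library d to the next value, over the whole range of the group, was 0.85, above Dixon's critical value for 4 samples. Chance alone picks out about 1 in 20 such groups.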

How the results depend on the processing

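No paired analysis was possible because no recovered library can be matched to a replicate number in the labels. The E2f2 call held in every alternative run for both treated groups (limma log2 1.41 to 1.54 in AOM+DSS and 1.57 to 1.91 in DSS). No gene's call changed direction. DESeq calls higher in AOM+DSS, 2 at an adjusted p under 0.05, numbered 4 under 0.1, 1 under 0.01 and 3 with a mean filter of 10. In place of the 1 higher and 0 lower DESeq calls in DSS, limma made 2 and 1. Limma's 2 higher calls in AOM+DSS became 1 with a pseudocount of 10, 1 to 16 with each library left out, and 17 without AOM+DSS library c and control library b. Its 2 higher calls in DSS became 3 with a pseudocount of 10 or a mean filter of 10, 1 in a fit over all 3 groups, 5 after correction for GC content and length, 1 to 2 with each library left out, 1 without control library b and DSS library a, and 6 with DSS libraries c and d only. Its 1 lower call in DSS became 2 with a pseudocount of 10, a mean filter of 10 or DSS libraries a and b only, and 3 with c and d only. It became 0 with TMM scaling or all 3 groups in 1 fit, and 0 to 1 with each library left out. That 1 was Cdt1, without control library b, in place of Mcm6. Between AOM+DSS and DSS the 0 calls became 1 higher (Mcm4) and 2 lower (Cenpa and E2f2) with DSS libraries c and d only. The settings that split DSS or drop doubted libraries were chosen after seeing the data, and the cause of these changes was not tested. With a library left out, the median fold of mitotic members stayed above 0 against control, from log2 0.14 to 0.55 in AOM+DSS and 0.27 to 0.47 in DSS. That of S-phase members ran from -0.065 to 0.31, changing sign without AOM+DSS library a or b, and from -0.29 to -0.16. Between AOM+DSS and DSS it ran from 0.10 to 0.48, and the mitotic median ran from -0.25 to 0.16, above 0 without AOM+DSS library c. These medians are of differences of mean logs, and the all-library values on that scale were added after seeing the data. TMM scaling moved the median of all genes by at most 0.035 in size. Recovery limits DSS at high means: that of Mki67 lay above those searched for 4 libraries, and that of Top2a gave no single match.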
